A study of Homo sapiens with 6 samples.

Results

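Antigen presentation by MHC class I was followed here through 9 genes named from the pathway, with earlier results of these data known. They are the heavy chain genes HLA-B, HLA-C and HLA-E, the light chain gene B2M, the peptide transporter genes TAP1 and TAP2, the tapasin gene TAPBP, the immunoproteasome subunit gene PSMB9 and the transactivator gene NLRC5. The count table listed 58735 genes, and all 9 were among the 14338 genes with enough counts to be tested. The cells were BT549, an established basal-like breast cancer line grown as a single line, so the libraries describe 1 line and no other cells. One group of 3 libraries came from cells given the solvent DMSO and the other group of 3 from cells given AS1842856, a small molecule that binds FOXO1 and is used as its inhibitor, both for 48 h. The dose of AS1842856 is 200 nM by the sample labels but 1 μM in the methods text, a difference that was not resolved here. Replicates carry the letters A, B and C in each group. The paper calls them biological replicates, and whether they came from separate passages or days is not given in the sources used here. The study asked which genes AS1842856 changes in basal-like cells, and AS1842856 against DMSO is the only comparison of these libraries.

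Nearly all nucleated cells show short peptides of their own proteins on class I molecules at the surface, where CD8 T cells and natural killer cells read them. Proteasomes cut the peptides, the TAP transporter carries them into the endoplasmic reticulum, and a loading complex with tapasin places them on a heavy chain bound to B2M. In many cells the genes of this path are induced by interferon through JAK kinases and IRF factors, and NLRC5 acts with the RFX complex, CREB/ATF factors and NF-Y at an upstream module of the heavy chain and B2M genes. Tumours often lower some of these genes and thereby become less visible to T cells.

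Upstream sequences are shown first because the members differed in response while sharing much of their known control. TAPBP, TAP1 and PSMB9 were the members that fell most, and B2M was not called. HLA-C was called lower and HLA-B was not, and their upstream sequences were alike. The ratio of HLA-B to HLA-C counts overlapped between groups (exact permutation p = 0.4), so a difference in their response was not shown. RefSeq windows on GRCh38.p14 were found for 7 of the 9 genes, and HLA-E and NLRC5 were not matched. The TAP2 window was searched with the others, but its sequence is not printed. TAP1 had 2 windows, and the first was used. Each line gives the 250 bases before the transcript start of its window, 5′ to 3′ on the strand of the gene. The TAP1 and PSMB9 lines lie within the annotated spans of these genes, so they are upstream of the window's start only. Capitals mark ISRE-like, kB-like, X2/CRE-like and Y-box letters.
TAPBP, chr6:33314079-33314328, minus strand: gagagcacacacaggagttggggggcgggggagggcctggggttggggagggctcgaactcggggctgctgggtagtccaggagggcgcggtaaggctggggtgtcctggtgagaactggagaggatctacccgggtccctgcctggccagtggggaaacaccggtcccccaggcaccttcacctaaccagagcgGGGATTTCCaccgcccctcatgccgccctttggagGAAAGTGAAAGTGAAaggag
TAP1, chr6:32853705-32853954, minus strand: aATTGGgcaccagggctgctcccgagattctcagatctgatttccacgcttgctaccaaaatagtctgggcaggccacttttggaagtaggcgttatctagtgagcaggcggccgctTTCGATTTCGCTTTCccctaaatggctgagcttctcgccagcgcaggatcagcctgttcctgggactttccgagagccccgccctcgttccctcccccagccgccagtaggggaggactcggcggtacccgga
PSMB9, chr6:32853942-32854191, plus strand: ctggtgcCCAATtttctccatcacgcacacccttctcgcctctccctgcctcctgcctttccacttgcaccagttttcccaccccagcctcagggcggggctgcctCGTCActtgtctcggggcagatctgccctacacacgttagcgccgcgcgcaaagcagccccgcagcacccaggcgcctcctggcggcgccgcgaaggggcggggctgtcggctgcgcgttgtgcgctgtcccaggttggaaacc
B2M, chr15:44711267-44711516, plus strand: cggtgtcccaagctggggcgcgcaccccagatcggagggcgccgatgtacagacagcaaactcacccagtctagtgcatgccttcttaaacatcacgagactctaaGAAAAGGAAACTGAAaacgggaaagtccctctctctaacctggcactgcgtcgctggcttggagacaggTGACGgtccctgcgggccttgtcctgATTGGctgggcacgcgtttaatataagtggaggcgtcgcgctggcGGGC
HLA-B, chr6:31357180-31357429, minus strand: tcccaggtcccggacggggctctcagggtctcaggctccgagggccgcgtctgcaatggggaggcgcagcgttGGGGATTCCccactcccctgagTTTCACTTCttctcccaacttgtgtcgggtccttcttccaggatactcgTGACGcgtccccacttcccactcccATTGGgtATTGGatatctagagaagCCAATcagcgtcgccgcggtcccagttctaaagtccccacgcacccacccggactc
HLA-C, chr6:31272093-31272342, minus strand: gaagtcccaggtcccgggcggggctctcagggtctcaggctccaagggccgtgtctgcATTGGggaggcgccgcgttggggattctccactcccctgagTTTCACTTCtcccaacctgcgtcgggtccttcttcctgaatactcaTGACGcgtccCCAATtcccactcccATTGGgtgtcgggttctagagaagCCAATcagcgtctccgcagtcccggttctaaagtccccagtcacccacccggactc

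Motifs were searched on both strands, from 250 bases before to 50 after the start, and matches may overlap each other. Positions are those of the first base of a match, with -1 just before the start. ISRE-like, the kind of site that IRF and STAT complexes bind, was spelled GAAANNGAA, and it was found in 8.11% of the 35116 windows of the RefSeq table. TAPBP had 2 such matches, at positions -20 and -14, which overlap. TAP1 had 2 on the opposite strand at -133 and -127, and B2M had 2 at -144 and -138. A different spelling, GAANNGAAA, was added after the sequences were seen and was found in 7.66% of windows. HLA-B carried it at -155 and HLA-C at -151, and TAP2 carried both spellings within one stretch, at -63 and -58. PSMB9 had neither spelling in its own window. By the windows used, its start lies 488 bases from that of TAP1 on the other strand.

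The kB-like letters GGGNNTTCC, the kind bound by NF-kB, were found in 6.58% of windows. They stood at -177 in HLA-B, at -55 in TAPBP and at -4 in B2M, where only the first bases fall in the printed stretch. The window of HLA-C had no match, although its upstream bases were 91.9% identical to those of HLA-B. That share is over the 246 aligned columns without gaps, and 8 gap bases were left out. Other kB spellings were not searched, so stretches such as gggactttcc in TAP1 were not counted. A window without a match may thus still hold a site of this kind. The X2/CRE-like letters TGACG, found in 24.6% of windows, stood at -106 in HLA-B, at -105 in HLA-C, at -75 in B2M and at -35 in TAP2, and on the opposite strand at -144 in PSMB9. The Y-box letters ATTGG, which NF-Y reads and which 34.6% of windows held, occurred 3 times in HLA-B, 4 times in HLA-C and 1 time each in B2M, TAP1 and PSMB9. A GAS-like spelling, TTCNNNGAA, and a FOXO-like spelling, GTAAACA, were found in 7.66% and 3.42% of all windows and in none of these 7. These matches describe letters and were not tested as binding sites. By the spelling GAAANNGAA, B2M, TAP1 and TAPBP held 2 matches each, TAP2 held 1, and HLA-B, HLA-C and PSMB9 held 0. Whether matches relate to the changes in RNA was not tested.

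The libraries held between 15289500 and 22981832 counts, and TMM factors were between 0.995 and 1.01. The median log2 fold change of all genes tested was 0.003, a value that the scaling itself holds near 0, so each fold is relative to the other genes. No 2 replicates were alike within counting noise (chi-square over its degrees of freedom from 2.37 to 3.28). Markers of the mesenchymal basal-like state (VIM, CD44, FN1, SPARC, CAV1) summed to between 4440 and 4580 CPM in DMSO and between 3960 and 4015 CPM in AS1842856. Within that list FN1 rose by 1.13 on the log2 scale, while VIM, CD44, SPARC and CAV1 fell by 0.34 to 0.59. Of 8 luminal and epithelial markers, ESR1, PGR, EPCAM and CDH1 had at most 8 counts in every library, while GATA3, KRT8, KRT18 and FOXA1 were tested. Levels are given in CPM, the counts of a gene scaled by library total and TMM factor to a common library size, folds are log2 fold changes of AS1842856 against DMSO from edgeR's quasi-likelihood test, and called means a Benjamini-Hochberg adjusted p under 0.05 over all genes tested. In a culture of many cells, less RNA per cell and fewer cells that express a gene cannot be told apart.

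AS1842856-treated cells had less RNA for 6 of the 9 genes, and no gene of the 9 was called higher. PSMB9 fell to 43.3% of its DMSO level, TAPBP to 58.3% and TAP1 to 64.5%. HLA-C, HLA-E and TAP2 fell by smaller amounts, and HLA-B, B2M and NLRC5 were not called. Among all genes tested, 28.4% were called lower and 27.6% were called higher. With 6 of 9 called lower the members stood above that share, but they were chosen with earlier results of these data known. The share is therefore given for scale only, and no test of the list was made. All 3 AS1842856 libraries lay below all 3 DMSO libraries in 7 of the 9 genes, a pattern seen in 30.3% of all genes tested. The median log2 fold change of the 9 genes was -0.21. No member was called higher by DESeq2 or by limma on the deposited FPKM, and none was higher at an unadjusted p under 0.05 in edgeR.

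**Figure D1:**
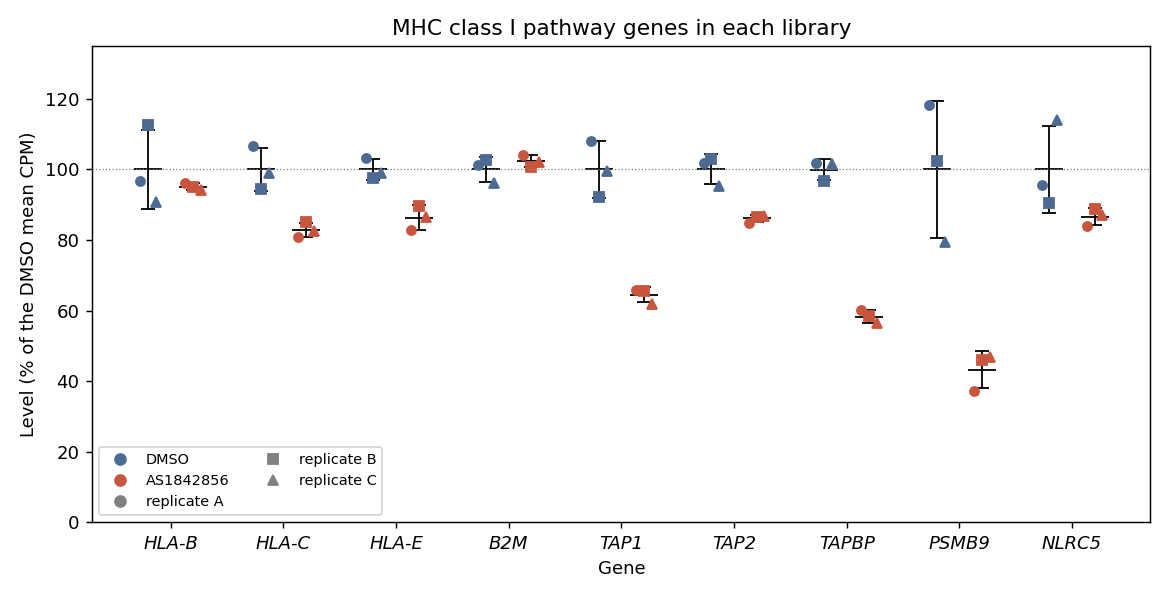
Level of each of the 9 genes in each library, as a percent of the gene's mean CPM over the 3 DMSO libraries (vertical axis, from 0). Points are libraries, with the marker shape giving the replicate letter, and bars are the mean ± SD of 3 libraries. The AS1842856 points of PSMB9, TAPBP and TAP1 lie far under the DMSO points, while those of B2M and HLA-B overlap the controls.

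HLA-C, on chromosome 6 at 31268749-31272130 (ENSG00000204525, minus strand, GRCh38 as are all gene positions here), encodes a classical heavy chain that also binds receptors of natural killer cells. Its level was 123.3, 109.3 and 114.5 CPM in DMSO replicates A, B and C and 93.7, 98.3 and 95.7 CPM in AS1842856 replicates A, B and C. Every treated library was below every control, and the fall from 115.7 ± 7.12 to 95.9 ± 2.33 CPM (SD, n = 3 each) was -0.27 ± 0.04 on the log2 scale (SE, edgeR adjusted p = 1.60e-08).

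HLA-E, on chromosome 6 at 30489467-30494205 (ENSG00000204592, plus strand), encodes a non-classical heavy chain that presents leader peptides of other class I chains to the NKG2A receptor. It had 190.4, 180.0 and 182.6 CPM in DMSO and 152.6, 165.4 and 159.3 CPM in AS1842856. The groups did not overlap, and the log2 fold change was -0.21 ± 0.04 (SE, edgeR adjusted p = 6.32e-07). HLA-E and HLA-C thus fell by similar amounts, with 95% intervals of -0.29 to -0.13 and -0.36 to -0.19 that overlap. The difference between them was not tested.

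HLA-B, on chromosome 6 at 31269491-31357188 (ENSG00000234745, minus strand), encodes the other classical heavy chain followed here. Its level was 19.8, 23.1 and 18.6 CPM in DMSO and 19.7, 19.5 and 19.3 CPM in AS1842856. The treated values fell inside the range of the controls, with a log2 fold change of -0.07 ± 0.09 and a 95% interval of -0.24 to 0.11 (edgeR adjusted p = 0.551). DMSO replicate B was the highest library, and without it the log2 fold change was 0.01. The interval does not reach the size of the falls of TAP1, TAPBP or PSMB9, but it covers the estimate of HLA-E.

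HLA-B and HLA-C are among the most polymorphic human genes, and reads of an allele that differs from the reference may be lost in mapping. The deposited counts do not show how many were lost, so the levels of the heavy chains against each other carry that limit. Of the 100-base stretches of their principal transcripts, 0.278% for HLA-C, 0.6% for HLA-E and 0 for HLA-B also occur in another annotated gene. Of the 50-base stretches, 6.79% for HLA-C, 5.13% for HLA-E and 2.54% for HLA-B do so. HLA-B and HLA-C share 35 exonic bases on one strand. HLA-F and HLA-G, 2 further heavy chain genes, were listed at 0 counts in all 6 libraries.

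B2M, on chromosome 15 at 44711487-44718877 (ENSG00000166710, plus strand), encodes beta-2 microglobulin, the invariant light chain that every class I heavy chain needs for its fold. Its level was 339.9, 344.3 and 322.2 CPM in DMSO and 349.3, 338.1 and 342.8 CPM in AS1842856. The groups overlapped and B2M was not called, with a log2 fold change of 0.03 ± 0.04 (edgeR adjusted p = 0.436). The 95% interval of -0.04 to 0.10 lies wholly above the estimates of HLA-C and HLA-E.

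TAP1 and TAP2 encode the partner subunits of the transporter that pumps peptides into the endoplasmic reticulum, and neither works alone. TAP1, on chromosome 6 at 32845209-32853978 (ENSG00000168394, minus strand), had 37.9, 32.3 and 34.9 CPM in DMSO and 23.0, 23.0 and 21.7 CPM in AS1842856. The highest treated library was well below the lowest control, and the mean went from 35.0 ± 2.78 to 22.6 ± 0.760 CPM. The log2 fold change was -0.64 ± 0.08 (edgeR adjusted p = 1.48e-14).

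TAP2, on chromosome 6 at 32821833-32838780 (ENSG00000204267, minus strand), had 36.2, 36.7 and 33.9 CPM in DMSO and 30.2, 30.8 and 30.9 CPM in AS1842856. The groups did not overlap, and the log2 fold change was -0.21 ± 0.07 (edgeR adjusted p = 0.00491). The TAP2 level is uncertain. A readthrough gene, AL669918.1, shares 2064 exonic bases with TAP2 on the same strand and was listed at 0 counts. Of the 100-base stretches of the TAP2 principal transcript, 79.8% also occur in another gene, so how the counting treated shared reads affects its level.

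TAPBP, on chromosome 6 at 33299694-33314387 (ENSG00000231925, minus strand), encodes tapasin, which holds empty heavy chains next to TAP and edits the peptides they take up. It had 230.8, 219.2 and 230.2 CPM in DMSO and 136.3, 132.4 and 127.9 CPM in AS1842856. The groups lay far apart and the spread within each was small. TAPBP fell from 226.8 ± 6.53 to 132.2 ± 4.24 CPM, with a log2 fold change of -0.78 ± 0.04 (edgeR adjusted p = 1.48e-51), the smallest p of the 9 genes. Of all genes tested, 9.05% had a lower log2 fold change than TAPBP and 11.8% a lower one than TAP1.

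PSMB9, on chromosome 6 at 32844136-32859585 (ENSG00000240065, plus strand), encodes the beta-1i subunit that replaces PSMB6 in the immunoproteasome and favours cuts after hydrophobic residues. It had 109, 66 and 62 counts in DMSO and 26, 44 and 35 counts in AS1842856, or 4.97, 4.30 and 3.34 CPM against 1.56, 1.93 and 1.96 CPM. Every treated library was below every control, and the log2 fold change of -1.20 ± 0.22 (edgeR adjusted p = 7.03e-07) was the largest fall of the 9 genes. At these counts the 95% interval was wide, from -1.65 to -0.76. Only 4.51% of all genes tested had a lower log2 fold change. PSMB9 shares 139 exonic bases with PSMB8 on the opposite strand and 174 with the noncoding PSMB8-AS1, whose mean count was 10.8, and the sources used here do not say whether counting used strand.

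NLRC5, on chromosome 16 at 56989485-57083531 (ENSG00000140853, plus strand), encodes the transactivator of class I genes. It had 8.24, 7.81 and 9.85 CPM in DMSO and 7.26, 7.66 and 7.51 CPM in AS1842856. The treated libraries were all below the controls, but by little, and DMSO replicate C stood above the others (log2 fold change -0.11 without it). The log2 fold change of -0.21 ± 0.13 was not called (edgeR adjusted p = 0.172), and its 95% interval of -0.47 to 0.05 also covers falls as large as those of HLA-C, HLA-E and TAP2.

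To rank the 9 genes by level, values were taken per length. On the deposited FPKM scale the DMSO means were 61.6 for HLA-E, 54.8 for B2M, 45.9 for HLA-C, 44.6 for TAPBP, 7.24 for TAP1, 6.67 for HLA-B, 5.53 for TAP2, 1.36 for PSMB9 and 0.693 for NLRC5. The neighbours HLA-C and TAPBP, and TAP1 and HLA-B, had overlapping ranges over the 3 DMSO libraries, so their order is not settled. After AS1842856 the means of TAPBP and TAP1 were 26.0 and 4.67 FPKM, and TAP1 then stood under HLA-B, at 6.34, and close to TAP2, at 4.76. PSMB9, at 0.588, and NLRC5, at 0.600, then overlapped, as did TAP1 and TAP2.

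The FPKM values divide by all exons ever annotated for a gene. For B2M the length implied by its FPKM was 6118 bases, against 1705 for the principal transcript. Per kilobase of the principal transcript, an alternative added after the data were seen, B2M stood first with 196.8 CPM in DMSO, followed by TAPBP with 120.1, HLA-C with 75.3 and HLA-E with 70.9. The remaining genes were at 14.3 (TAP2), 13.2 (HLA-B), 11.8 (TAP1), 5.37 (PSMB9) and 1.27 (NLRC5). The order of the means thus depended on the length used. HLA-E went from first to last of the 4 most abundant genes, and TAP1, HLA-B and TAP2 came in the reverse order. Per principal transcript, HLA-E and HLA-C had overlapping DMSO ranges, as did HLA-B with TAP1 and HLA-B with TAP2. The order within those pairs is not settled on that scale. The same 4 genes stood above the other 5 on both scales.

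**Figure D2:**
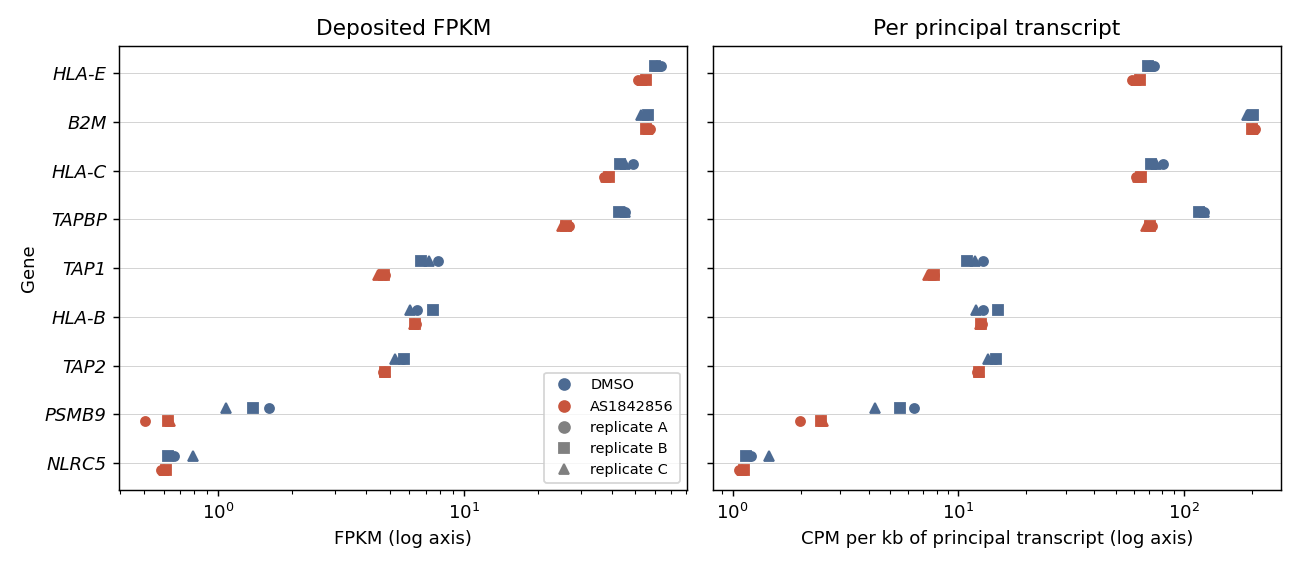
Levels of the 9 genes in each library on a log axis, as deposited FPKM (left) and as CPM per kilobase of the principal transcript (right), with genes in the order of their DMSO FPKM. Points are libraries coloured by group. B2M moves to the top on the right, and HLA-E, HLA-C, TAPBP and B2M stand apart from the other 5 genes on both scales.

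Ratios of the counts of 2 genes within a library do not depend on scaling. They are not divided by length, so only their change between groups is read, and 10 pairs were compared by an exact two-sided permutation test, in which 3 against 3 libraries cannot give a p under 0.1. HLA-C counts were 36.3%, 31.7% and 35.5% of B2M counts in DMSO and 26.8%, 29.1% and 27.9% in AS1842856. HLA-E was 55.0% ± 2.37 of B2M in DMSO and 46.4% ± 2.61 in AS1842856 (SD, n = 3 each). Both shares were lower in all treated libraries, with differences of -0.30 and -0.25 on the log2 scale (exact permutation p = 0.1, adjusted 0.125 over 10 pairs). HLA-B against B2M differed by -0.10, from 6.10% to 5.67%, with the groups set apart only by 5.76% against 5.75%, and without DMSO replicate B the difference was -0.031. HLA-B against HLA-C was 17.8% ± 2.86 in DMSO and 20.3% ± 0.632 in AS1842856, and the groups overlapped (exact p = 0.4).

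TAP1 counts were 98.6% ± 9.08 of TAP2 counts in DMSO and 73.8% ± 3.16 in AS1842856. All treated libraries were below the controls, with a log2 difference of -0.41 (exact permutation p = 0.1, adjusted 0.125). That p is the lowest this test can give, and the TAP2 counts are uncertain because of shared sequence. Unequal change of the genes of the transporter subunits was therefore not established. TAPBP against TAP1 differed by -0.15 on the log2 scale and TAP1 against PSMB9 by 0.57, both without overlap between groups. PSMB9 counts were 2.81% of those of PSMB6, the standard subunit it replaces, in DMSO and 1.45% in AS1842856. The corresponding share for PSMB8, the beta-5i subunit, against PSMB5 went from 8.36% to 4.75%. The third inducible subunit, PSMB10, stood at 1.33% of PSMB7 in DMSO and 1.07% in AS1842856, with overlap between the groups (exact p = 0.4).

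**Figure D3:**
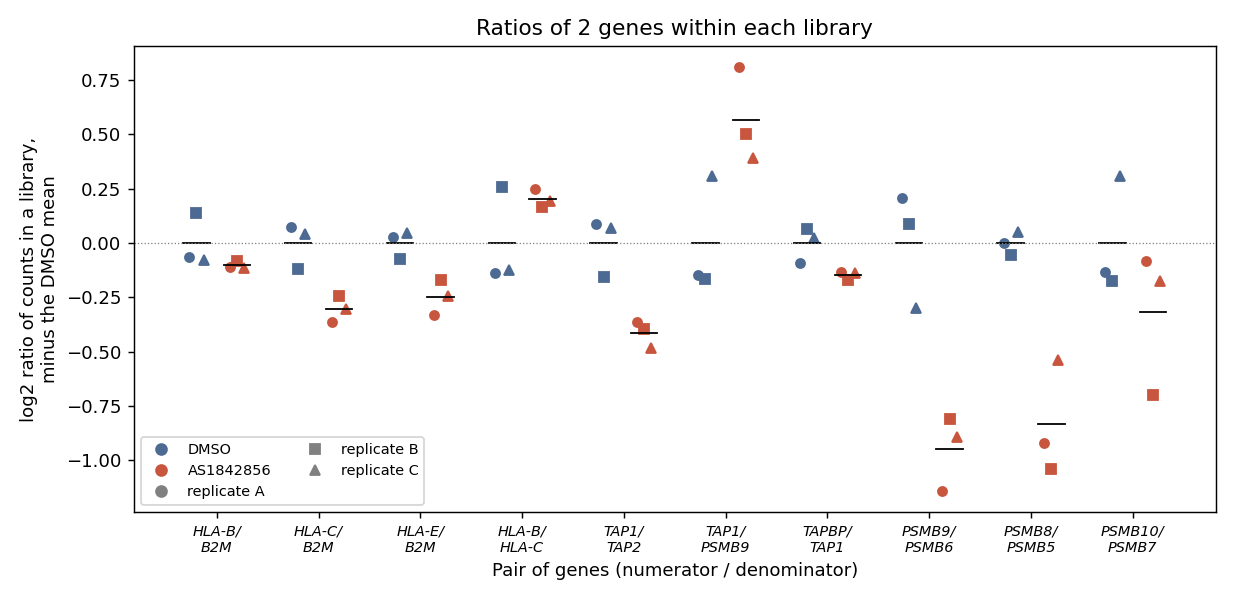
Log2 ratio of the counts of 2 genes in each library, minus the mean of the 3 DMSO libraries, for 10 pairs. Points are libraries, short bars are group means, and pairs are written as numerator over denominator. The treated libraries lie apart from the controls in every pair but HLA-B/HLA-C and PSMB10/PSMB7.

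The other genes of the pathway were counted from lists chosen by function. They held 61 genes, of which 48 were tested, and 24 were called lower, 7 higher and 17 not called, with a median log2 fold change of -0.21. Of all genes tested, 28.4% were called lower and 27.6% higher. The lists were chosen with earlier results of these data known, and none was tested against those shares. The list of peptide loading and trimming had all of its 8 genes tested, with 6 lower and 2 higher. ERAP1, the aminopeptidase that trims peptides in the endoplasmic reticulum, had 38.4, 37.0 and 36.5 CPM in DMSO and 12.3, 12.2 and 13.1 CPM in AS1842856, and fell by 1.58 ± 0.08 on the log2 scale (edgeR adjusted p = 2.83e-48). That fall was larger than the fall of any of the 9 members. Its relative ERAP2 fell by 0.84 on the log2 scale. The loading complex chaperones CALR and PDIA3 fell by 0.28 and 0.21, while CANX, the chaperone that receives free heavy chains, rose by 0.18 (edgeR adjusted p = 2.53e-07). SEC61B, a subunit of the channel through which nascent chains enter, rose by 0.11 (edgeR adjusted p = 0.0374), a call lost in 6 of 15 alternatives.

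Of the 5 genes of the immunoproteasome and its activator, 2 were lower and 3 not called, beside 28.4% lower among all genes tested. PSMB8, the beta-5i subunit, fell from 18.9 ± 1.03 to 10.8 ± 1.81 CPM (log2 fold change -0.82 ± 0.10, edgeR adjusted p = 4.50e-13), and PSME2, a subunit of the PA28 activator, fell by 0.24. PSMB10, the beta-2i subunit, had -0.27 ± 0.22 (edgeR adjusted p = 0.293), and its value was -0.08 without AS1842856 replicate B and -0.11 without DMSO replicate C. Of the 6 standard proteasome genes, 3 were lower and 3 not called, and the largest falls were those of PSMD1 (-0.37), a subunit of the regulatory cap, and PSMB6 (-0.25). PSMB9 and PSMB8 thus had larger falls than any of the 6 standard genes by their fitted values, a difference tested only for the pairs of subunits given above.

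**Figure D4:**
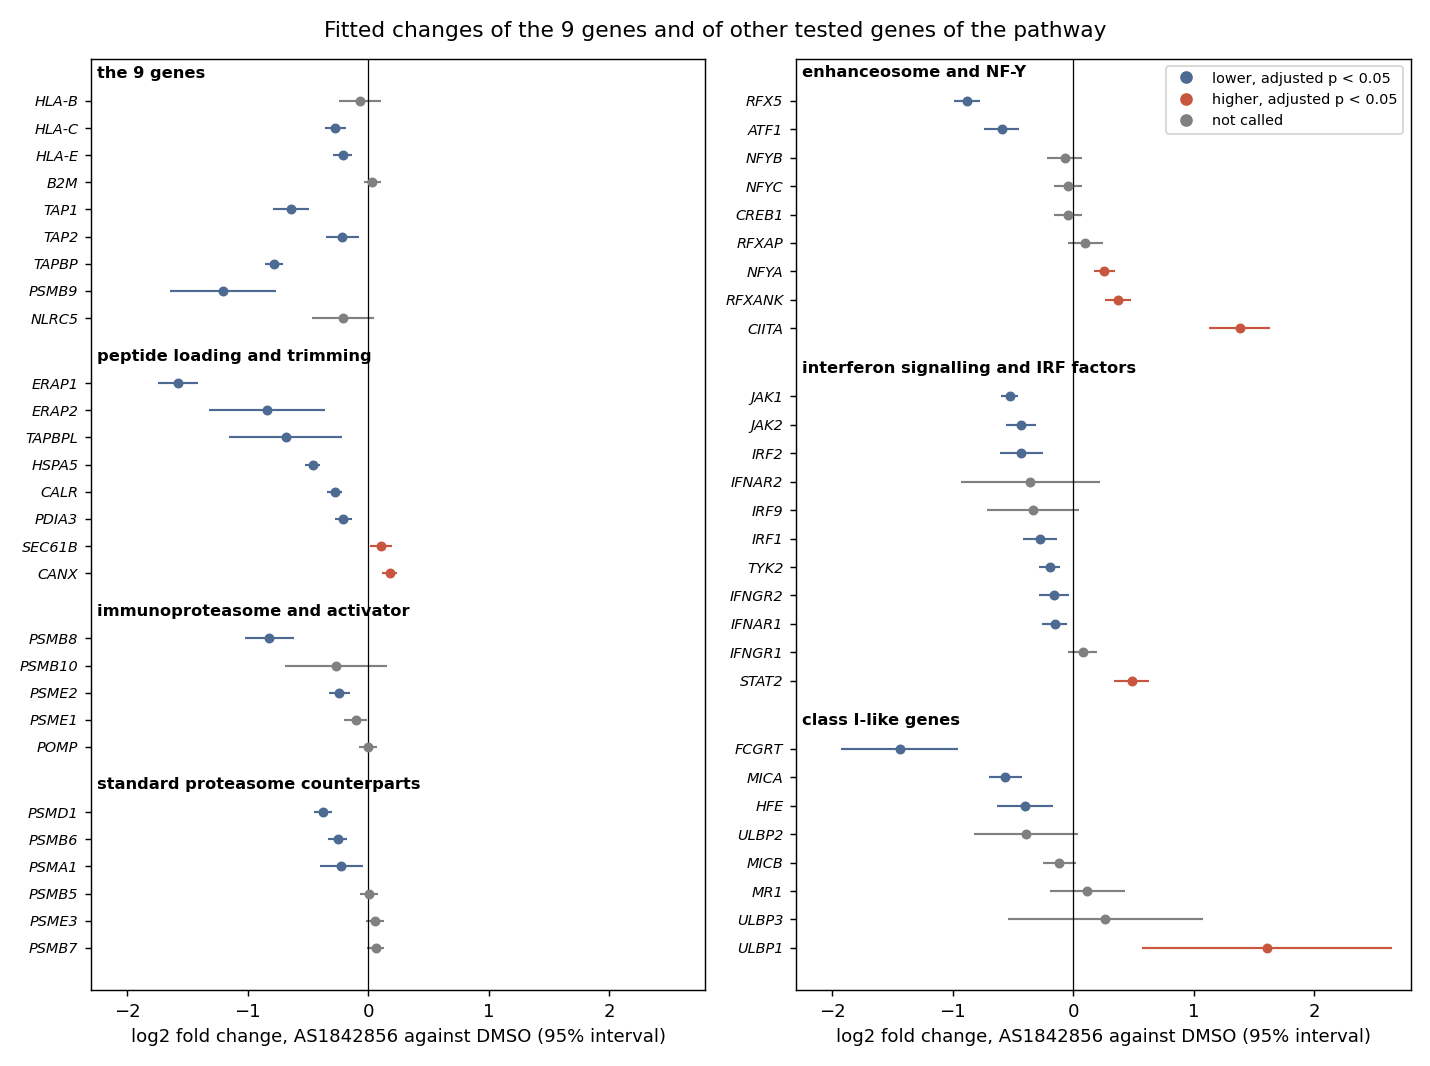
Log2 fold change of AS1842856 against DMSO with its 95% interval (horizontal axis) for the 9 genes and for 47 of the 48 other pathway genes that were tested, by list. Colours give the call at an adjusted p under 0.05. PSMB9 has the lowest value of the 9 genes, ERAP1 the lowest of all those drawn, and CIITA and ULBP1 the highest.

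The enhanceosome and NF-Y bind the upstream module of class I and class II genes. Among 9 genes of this list, 2 were lower, 3 higher and 4 not called. These counts lie near the shares of all genes tested, 28.4% lower and 27.6% higher. RFX5, the DNA-binding subunit of the RFX complex through which NLRC5 acts, had 80.8, 85.7 and 90.2 CPM in DMSO and 43.7, 46.0 and 49.6 CPM in AS1842856. RFX5 fell by 0.88 on the log2 scale (edgeR adjusted p = 2.32e-40), and ATF1, a CREB/ATF factor, fell by 0.59. RFXANK, another RFX subunit, rose by 0.37. CIITA, the class II relative of NLRC5, had 4.19, 6.32 and 5.54 CPM in DMSO and 13.4, 13.7 and 14.1 CPM in AS1842856, and rose by 1.38 ± 0.13 on the log2 scale (edgeR adjusted p = 2.54e-21). None of the 9 class II genes followed had enough counts to be tested. HLA-DRA had 0, 0 and 1 counts in DMSO and 1, 7 and 3 in AS1842856, and CD74, the invariant chain, had 9, 4 and 10 against 12, 6 and 20.

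Of 12 genes of interferon signalling and IRF factors, 8 were lower, 1 higher and 3 not called, and the median log2 fold change was -0.30. For all genes tested the shares were 28.4% lower and 27.6% higher, and the list was not tested against them. IRF1, an inducible activator of class I, TAP1 and PSMB9 genes, fell from 34.5 ± 2.66 to 28.6 ± 0.474 CPM, a change of -0.27 ± 0.07 (edgeR adjusted p = 0.000426). The receptor kinases JAK1 and JAK2 fell by 0.53 and 0.43. STAT2, which acts in the type I interferon signal, rose by 0.49 (edgeR adjusted p = 2.17e-09). Of 10 class I-like genes, 8 were tested, with 3 lower, 1 higher and 4 not called. FCGRT, the heavy chain of the neonatal Fc receptor that also pairs with B2M, fell by 1.44, and MICA, a stress ligand of the NKG2D receptor, fell by 0.56. ULBP1, also an NKG2D ligand, rose by 1.61 (edgeR adjusted p = 0.00557) from a mean of 0.232 to 0.774 CPM, and this call was lost in DESeq2, without DMSO replicate B and in limma on unfiltered FPKM.

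Leukocytes carry much class I RNA, and their markers were followed for that reason. CD3E, MS4A1 and NKG7 were at 0 counts in all 6 libraries, and 7 of the 10 leukocyte markers had at most 8 counts in every library. The 10 markers summed to between 1.67 and 2.41 CPM in DMSO and between 4.16 and 5.94 CPM in AS1842856. Their part in the results for the class I genes was not tested. PTPRC, the leukocyte CD45, had 26, 24 and 13 counts in DMSO and 44, 74 and 64 in AS1842856 and was called higher. Among the luminal and epithelial markers KRT8, KRT18 and FOXA1 fell by 3.31, 3.30 and 1.11 on the log2 scale and GATA3 rose by 0.28, from 50.9 to 61.7 CPM, and the summed level of the 8 genes went from between 125.3 and 128.7 CPM to between 65.3 and 74.2 CPM. The part of a shift in cell state in the falls of the class I genes was not tested.

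The members on chromosome 6, all but B2M and NLRC5, lie within 2.825 Mb from HLA-E to TAPBP. In that interval 80 other genes were tested, of which 22 were lower and 18 higher, with a median log2 fold change of -0.02. Over all genes tested the shares called were 28.4% lower and 27.6% higher. Of the 7 members in the interval 6 were called lower, and whether they differ from their neighbours was not tested.

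Outside the lists, the genes whose 6 library values were nearest to the median profile of the 9 members were MCM3, SNX1, KIFC1, CDC16 and SLC25A37, with Euclidean distances between 0.0424 and 0.0522 in centred log2 units. The members themselves lay at distances between 0.0955 for HLA-E and 0.988 for PSMB9 from their own median. The median profile therefore stands for HLA-E, TAP2 and HLA-C, at 0.126, better than for TAP1, TAPBP and PSMB9, which fell more. Each profile has only 6 points, in 2 groups.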

How the data were processed

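RNA-Seq was measured in 6 libraries of BT549 cells, 3 per group, assigned from the sample labels. The authors deposited raw counts per gene, without normalization, and FPKM values for each library, which listed 25015 genes. The paper names STAR as the aligner, while the submitters' processing notes name CASAVA, Bowtie 0.12.2 and GRCh38. The counting tool and the use of strand are not given in the sources used here. All 58735 identifiers were found in GENCODE release 29, which gave symbols and positions. Counts were filtered with filterByExpr (minimum count 10, total 15), scaled by TMM and compared with edgeR 4.0.16 (robust quasi-likelihood test, no block, Benjamini-Hochberg threshold 0.05) in R 4.3.3, after the test was tried on simulated data. The common biological coefficient of variation was 0.0374 at 15289500 to 22981832 counts per library. DESeq2 1.42.0, other scalings and filters, limma 3.58.1 on log2(FPKM + 1) and log2(FPKM + 0.1), a replicate block and each library left out were alternatives. Upstream sequences were those of RefSeq on GRCh38.p14.

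The 9 genes and the lists were chosen with earlier results of these data known. All 9 were named, with the 2 largest increases and decreases called per list, a few fixed regulators and the 5 genes nearest to the median profile (mean of at least 1 CPM). HLA-F, HLA-G, HLA-DRA, CD74 and the marker genes outside this rule were named after their values were seen. Further class I heavy chain genes and single genes of the lists, which stay in the list counts, are not reported here. Standard errors are the size of the log2 fold change over the square root of F. As reads carry no molecular identifiers, counting error alone understates the noise. The edgeR p-values weigh the difference between groups against the spread between these libraries, which is estimated with help from other genes.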

Additional observations from a re-analysis of the deposited data

How the results depend on the processing

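The 6 genes called lower, PSMB9, TAPBP, TAP1, HLA-C, HLA-E and TAP2, kept their direction and their call in all 15 alternatives, and no member was called higher in any. Leaving out each library in turn gave log2 fold changes of -1.35 to -1.06 for PSMB9, -0.81 to -0.76 for TAPBP, -0.69 to -0.58 for TAP1, -0.32 to -0.23 for HLA-C, -0.24 to -0.19 for HLA-E and -0.26 to -0.20 for TAP2. HLA-B ranged from -0.13 to 0.01 in these fits and changed sign without DMSO replicate B (0.0146, edgeR adjusted p = 0.915), while B2M and NLRC5 ranged from 0.0004 to 0.05 and from -0.27 to -0.11. The number of all genes called was 8029, and 6453 to 8030 over the alternatives, with 6804 in DESeq2. Of the other pathway genes, 19 to 24 were called lower and 5 to 7 higher. Of the log2 fold changes recomputed, 460 kept direction and call, 10 lost their call (SEC61B, ULBP1 and ERAP2) and 1 changed sign, and the cause was not tested. All 70 recomputed ratios moved by less than the spread between replicates, but HLA-B against B2M came to -0.031 and HLA-B against HLA-C to 0.33 without DMSO replicate B, and PSMB10 against PSMB7 to -0.13 without AS1842856 replicate B. Same-lettered libraries did not all deviate together, with correlations of 0.026 for A, -0.01 for B and -0.01 for C. The letters were therefore not taken to pair them. DMSO replicate C with AS1842856 replicate B had 0.0254, and DMSO replicate B with AS1842856 replicate C had 0.0242. Every other correlation between a DMSO and an AS1842856 library was negative. The block used as an alternative follows the letters and not these values. With the replicate letter as a block, 7862 genes were called, with 6 members lower and 0 higher and 24 other pathway genes lower and 7 higher. PSMB9 had at most 109 counts in any library, which left its interval wide.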
